A study of Mus musculus with 6 samples.

Results

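The Hox cluster genes of the embryonic mouse kidney are described here across 6 samples of whole kidneys at E13.5, 3 of Fz4-/- and 3 of Fz4+/+ embryos. The members were the genes whose symbol in the platform annotation was Hox, a cluster letter from a to d and a number, read by a probe set that the annotation gave to 1 gene. There were 33 such genes of 18193 genes with a probe set of their own, and their symbols matched 33 of the 39 Hox genes of the RefSeq table by Entrez number. The remaining Hox genes, among them Hoxc11, had no such probe set and were not analysed here. The 33 genes had 48 probe sets, and the brightest by the mean of all 6 arrays stood for each gene, with no filter on low signal. RNA from each sample was read on an Affymetrix MOE430.2 array, and signals are log2 values after RMA, a method that corrects background and makes the arrays comparable. Each of 3 litters gave 1 Fz4-/- and 1 Fz4+/+ sample. Fzd4 encodes this receptor of the Frizzled family, which binds Wnt proteins and Norrin at the cell surface. The strain, the way the allele was made, and whether embryos were pooled are not given in the sources used here, so p-values measure the spread between these samples.

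Hox genes encode transcription factors with a DNA-binding homeodomain. They lie in 4 clusters, Hoxa to Hoxd, and genes at the same place in different clusters form a paralogue group. Low-numbered genes are switched on early and towards the head, high-numbered ones later and towards the tail. Genes of the Hox9, Hox10 and Hox11 groups act in the kidney: Hox11 proteins work with Eya1 and Pax2 in the metanephric mesenchyme to switch on Gdnf and Six2, and Hox10 genes act in the stroma. Many Hox proteins bind DNA together with TALE cofactors such as Pbx and Meis. In whole kidneys, fewer cells of a type and less RNA per cell cannot be told apart.

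Hoxd1 and Hoxa2 had the smallest litter p of the members with a promoter in the table. Hoxa11 and Hoxd11 are the measured genes of the kidney's Hox11 group. Promoters are shown for these 4 members. Each is the 250 bases before a transcription start in RefSeq, 5′ to 3′ on the strand of the gene, in the build GRCm38.p6. Hoxd1 is shown at chr2:74762730-74762979 on the plus strand and Hoxa2 at chr6:52164832-52165081 on the minus strand. Hoxa11 is shown at chr6:52245811-52246060 on the minus strand and Hoxd11, at the later of its 2 starts in the table, at chr2:74682073-74682322 on the plus strand. Capitals mark TGATNNAT, a site to which Hox and Pbx proteins bind together, on either strand.
Hoxd1: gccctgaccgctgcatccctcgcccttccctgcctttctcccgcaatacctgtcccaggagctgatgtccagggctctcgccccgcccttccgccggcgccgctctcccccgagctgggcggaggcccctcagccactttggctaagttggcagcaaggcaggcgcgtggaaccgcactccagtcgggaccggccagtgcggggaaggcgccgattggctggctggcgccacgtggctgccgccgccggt
Hoxa2: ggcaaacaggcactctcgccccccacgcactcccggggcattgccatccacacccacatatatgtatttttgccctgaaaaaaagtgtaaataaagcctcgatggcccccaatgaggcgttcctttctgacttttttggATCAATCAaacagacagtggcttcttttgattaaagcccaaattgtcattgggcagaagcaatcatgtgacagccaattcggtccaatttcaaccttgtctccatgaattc
Hoxa11: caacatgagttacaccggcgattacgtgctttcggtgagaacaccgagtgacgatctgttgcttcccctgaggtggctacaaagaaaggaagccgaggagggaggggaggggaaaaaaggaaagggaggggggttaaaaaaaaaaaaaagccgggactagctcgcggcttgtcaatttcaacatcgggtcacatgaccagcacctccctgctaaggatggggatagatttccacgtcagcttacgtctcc
Hoxd11: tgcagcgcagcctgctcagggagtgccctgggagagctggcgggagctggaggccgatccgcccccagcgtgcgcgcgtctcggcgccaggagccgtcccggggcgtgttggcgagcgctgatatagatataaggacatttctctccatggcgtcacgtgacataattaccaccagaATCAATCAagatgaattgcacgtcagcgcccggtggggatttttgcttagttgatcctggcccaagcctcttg
The Hoxa2 and the Hoxd11 sequence each held 1 such site, with the same letters, and the Hoxd1 and Hoxa11 sequences held none. So 1 gene of each pair had the site in the sequence shown, and the promoter at the earlier Hoxd11 start did not have it. The table held 21 promoters of 19 members, and 3 of the 21 had the site (Hoxa2, Hoxb1 and Hoxd11), against 7.68% of all 32851 promoters of the same length. AGGTCA, a core motif of retinoid receptors, was in 5 of the 21 (Hoxb4, Hoxc4, Hoxd3, Hoxd8 and Hoxd10) and 14% of all promoters. TATAAA, the TATA box, was in 2 of the 21 (Hoxa10 and Hoxd13) and 12.4% of all. None of these 2 motifs lay in the sequences shown, so no marked site overlapped another motif, and both were searched on either strand. The median ratio of observed to expected CpG was 0.687 over the Hox promoters and 0.373 over all promoters. These matches describe letters and show no binding.

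Members of every paralogue group up to Hox11 gave a signal above the low range of the array, and those of groups 12 and 13 did not. Of the 33 members 26 had a mean at or above 5.89 log2, the 40th percentile of the means of all 45037 probe sets, and 7 lay below. The 7 were Hoxb1, Hoxb7, Hoxd12 and all 4 measured Hox13 genes. For Hoxb7 this rests on its own probe set, and a probe set shared by Hoxb8 and Hoxb7, not used for members, had a mean of 9.05. Probe sets read the same amount of RNA with different brightness, so levels are not ranked between genes here, and a low reading is not a detection call. By cluster, the means were above that level for 8 of 9 Hoxa genes, 6 of 9 Hoxb genes, 6 of 7 Hoxc genes and 6 of 8 Hoxd genes. All 9 members of the Hox9 to Hox11 groups were above it, with means from 9.25 for Hoxd11 to 12.76 for Hoxd9. Of the 24 other members 17 were above it, and their means ran from 4.06 for Hoxa13 to 11.53 for Hoxb3. Counted in single samples, between 25 and 27 members read above the level. The plot of signals by cluster shows these readings.

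**Figure D1:**
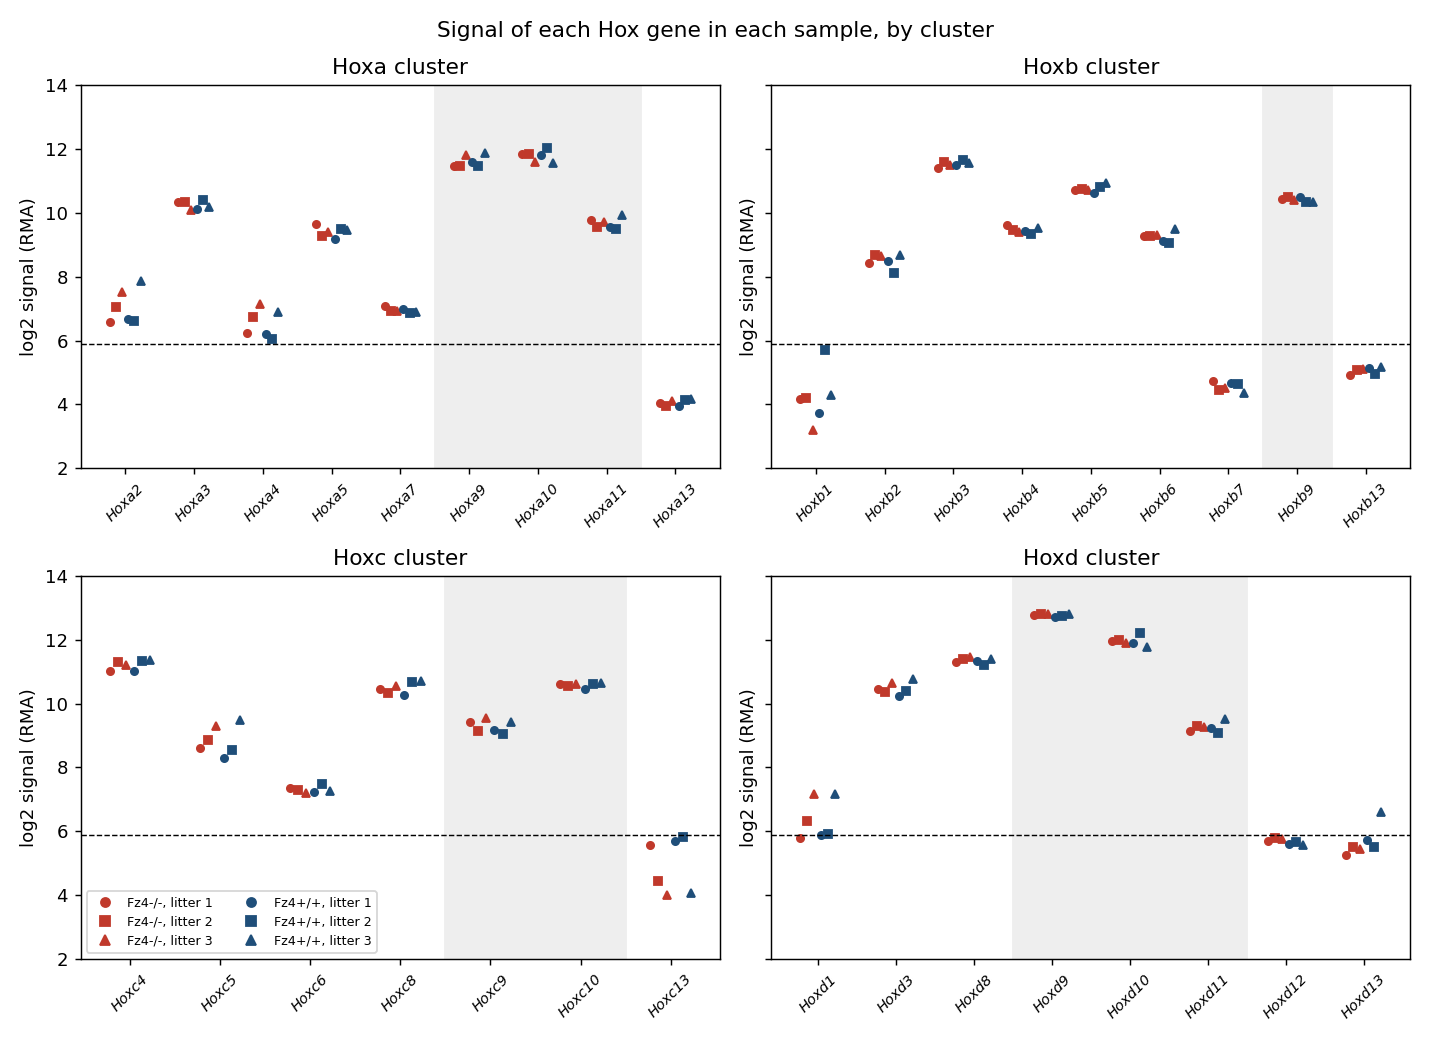
Signal of the 33 Hox genes in each sample. The vertical axis is log2 signal after RMA, the horizontal axis lists the genes of each cluster by paralogue group, points are samples (red Fz4-/-, blue Fz4+/+; circle, square and triangle for litters 1, 2 and 3), grey bands mark Hox9 to Hox11, and the dashed line is 5.89 log2, the 40th percentile of all probe sets. All 9 genes in the grey bands lie above the line in all 6 samples, and Hoxa13, Hoxb1, Hoxb7, Hoxb13, Hoxc13 and Hoxd12 lie below it in all 6.

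The samples were checked first for Fzd4 and for kidney markers. On its brightest probe set Fzd4 read 4.37, 3.58 and 6.22 in the Fz4-/- samples of litters 1 to 3, and 11.21, 11.12 and 10.31 in the Fz4+/+ samples. That loss had an unadjusted p of 0.0000917 in limma but an adjusted p of 0.999995, so the test with 3 samples a group did not call the deleted gene either. All 8 nephron progenitor markers, all 6 measured ureteric bud markers and all 4 measured stromal markers were above 5.89 log2. Of 5 spinal cord markers 1 was above it, as were 1 of 4 gut epithelium and 2 of 4 limb mesenchyme markers. All 6 liver, all 7 striated muscle and 5 of 7 neural markers were above it too. Of the variance over all probe sets, 68.5% fell on the first principal component, which had both samples of litter 3 at its upper end, so results below are also given by litter.

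Whether loss of Fz4 went with a different level of any Hox gene was asked with limma across all probe sets. No Hox gene passed the test, which also did not call Fzd4, and the differences of most were small: Fz4-/- minus Fz4+/+ had a median of 0.01 over the 33 members, against 0.0062 over all probe sets. The Hox9 to Hox11 group had a median of 0.01, with single genes from -0.05 to 0.17, and the other Hox genes a median of 0.0045, with single genes from -0.72 to 0.33. limma called 0 of 33 members and 0 of 45037 probe sets (0%) at an adjusted p under 0.05. At an unadjusted p under 0.05 it found 0 members, against 1.18% of all probe sets (531) and 1.09% of the brightest probe sets of all 18193 genes, which were chosen as the members' were. Array weights gave 4 members at that level (Hoxa4, Hoxc5, Hoxc13 and Hoxd12) among 9510 probe sets, and leaving out the litter 2 Fz4+/+ sample gave 1, Hoxd13, among 382. With litter as a block it found 0 members at that level, against 3.20% of all probe sets (1442) and 2.74% of those of all genes, and called 0 of each (0%). The values of 18 of 33 members were above 0, against 51.9% of all probe sets and 54.1% of those of all genes. A difference had the same sign within all 3 litters for 8 of 33 members, against 22.1% and 23.1%: Hoxa4, Hoxa7, Hoxc9, Hoxd9 and Hoxd12 were higher in Fz4-/-, and Hoxa9, Hoxb3 and Hoxc13 lower. The second probe set of Hoxa9 instead read higher in Fz4-/- in each litter. The 95% interval of the difference lay within 0.5 log2 of 0 for 24 members and within 1 log2 for 28. Differences beyond those sizes lay outside the intervals of these genes, whereas the intervals of Hoxa4, Hoxb1, Hoxc13, Hoxd1 and Hoxd13 reached past 1 log2. All genotype SEs and intervals given here come from the fit without litter, so the spread between litters enters them. With litter as a block the SE was 0.14 in place of 0.48 for Hoxd1, 0.18 in place of 0.41 for Hoxa2 and 0.17 in place of 0.31 for Hoxa4. For some members it was larger, as for Hoxa5 at 0.17 in place of 0.15.

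**Figure D2:**
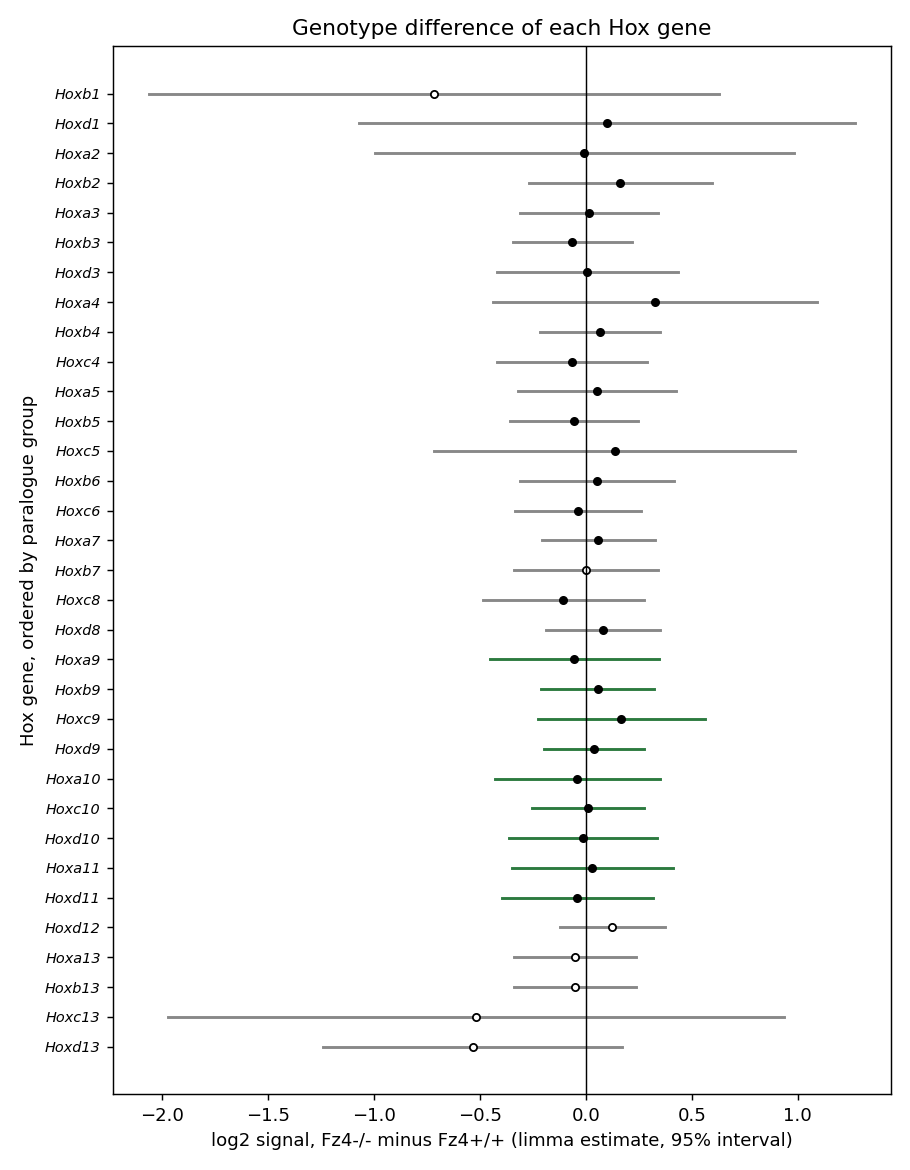
Genotype difference of each Hox gene, from group 1 at the top to group 13 at the bottom. The horizontal axis is log2 signal in Fz4-/- minus Fz4+/+ as estimated by limma, lines are 95% intervals (green for Hox9 to Hox11, grey for the others), and open points are the 7 genes with a mean below 5.89 log2. All 33 intervals include 0, and the widest belong to Hoxc13, Hoxb1, Hoxd1, Hoxa2 and Hoxc5.

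The Hox11 group is needed for the ureteric bud to form at all. Of this group Hoxa11 and Hoxd11 were measured and Hoxc11 was not, so the values do not cover the whole group. Hoxa11 read 9.77, 9.57 and 9.73 in the Fz4-/- samples of litters 1 to 3 and 9.54, 9.49 and 9.93 in the Fz4+/+ samples. Its difference was 0.03 ± 0.16 (SE), with a 95% interval from -0.35 to 0.41. The groups overlapped, and the Fz4+/+ sample of litter 3 was the highest. For Hoxd11 the Fz4-/- samples read 9.13, 9.30 and 9.26 and the Fz4+/+ samples 9.23, 9.07 and 9.51. It differed by -0.04 ± 0.15 (SE), with an interval from -0.40 to 0.32. Here too the Fz4+/+ sample of litter 3 was the highest, and the Fz4+/+ sample of litter 2 the lowest. limma's adjusted p was 0.999995 for both genes.

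The Hox10 group acts in the stroma, whose cells signal to the nephron progenitors. Hoxa10 read 11.83, 11.83 and 11.59 in Fz4-/- and 11.81, 12.01 and 11.54 in Fz4+/+ samples, a difference of -0.04 ± 0.16 (SE). Hoxc10 read 10.60, 10.54 and 10.62 in Fz4-/- against 10.46, 10.62 and 10.65 in Fz4+/+, a difference of 0.01 ± 0.11 (SE). Hoxd10 read 11.95, 11.997 and 11.88 in Fz4-/- against 11.89, 12.20 and 11.78 in Fz4+/+, a difference of -0.01 ± 0.14 (SE). The Fz4+/+ sample of litter 2 was the highest of all 6 for Hoxa10 and Hoxd10, and both samples of litter 3 were the lowest for both genes. For Hoxc10 both samples of litter 3 were instead above the other 4, though the next sample read nearly the same. The genotypes overlapped for all 3 genes.

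The Hox9 group is also active in kidney mesenchyme. Hoxa9 read 11.47, 11.45 and 11.82 in the Fz4-/- samples and 11.57, 11.48 and 11.86 in the Fz4+/+ samples, a difference of -0.05 ± 0.16 (SE). Both samples of litter 3 were above the other 4. Hoxb9 read 10.42, 10.51 and 10.39 in Fz4-/- against 10.49, 10.32 and 10.33 in Fz4+/+, a difference of 0.06 ± 0.11 (SE), with overlapping groups. Hoxc9 differed by 0.17 ± 0.16 (SE), from Fz4-/- readings of 9.43, 9.15 and 9.54 and Fz4+/+ readings of 9.16, 9.04 and 9.42. It was higher in Fz4-/- in each litter, by 0.28, 0.11 and 0.12, yet the groups overlapped and limma's unadjusted p was 0.342. Leaving out 1 sample at a time moved the Hoxc9 difference between 0.08 (without the litter 3 Fz4-/- sample, or the litter 2 Fz4+/+ sample at 0.09) and 0.28 (without the litter 2 Fz4-/- sample, or the litter 3 Fz4+/+ sample at 0.27), and array weights gave 0.04. Hoxd9 had the smallest spread of any member: its Fz4-/- samples read 12.76, 12.80 and 12.79 and its Fz4+/+ samples 12.72, 12.73 and 12.79. The difference was 0.04 ± 0.10 (SE), with an interval from -0.20 to 0.28.

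Among the other Hox genes, the higher ones with the smallest unadjusted p were Hoxd12, Hoxa4 and Hoxb2. Hoxd12, a limb and tail gene, was the 1 member of 33 whose groups did not overlap, against 4.57% of all probe sets and 4.69% of those of all genes. It read 5.68, 5.79 and 5.77 in Fz4-/- and 5.61, 5.67 and 5.59 in Fz4+/+ samples, all below 5.89 log2, a difference of 0.13 ± 0.10 (SE). The exact permutation p was 0.1, the smallest that 3 against 3 can give, and limma's unadjusted p was 0.26. Hoxa4 read 6.22, 6.74 and 7.14 in Fz4-/- against 6.21, 6.04 and 6.88 in Fz4+/+, a difference of 0.33 ± 0.31 (SE). Within litters Hoxa4 differed by 0.02, 0.70 and 0.27, so that litter 2 gave most of the difference. Leaving out 1 sample moved the Hoxa4 difference to 0.11 (litter 3 Fz4-/-), 0.16 (litter 2 Fz4+/+), 0.57 (litter 1 Fz4-/-) or 0.58 (litter 3 Fz4+/+), and array weights gave 0.51. Hoxb2, a hindbrain gene, read 8.44, 8.68 and 8.65 in Fz4-/- against 8.50, 8.11 and 8.67 in Fz4+/+, a difference of 0.16 ± 0.18 (SE). The low Fz4+/+ reading was that of litter 2, and leaving it out gave a difference of 0.0034, while leaving out its litter 3 counterpart gave 0.29.

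The lower ones were Hoxd13, Hoxb1 and Hoxc13 and all had means below 5.89 log2. Hoxd13, a gene of the limb tips and the cloaca, read 5.27, 5.52 and 5.44 in Fz4-/- and 5.73, 5.51 and 6.59 in Fz4+/+ samples, a difference of -0.53 ± 0.29 (SE) and an unadjusted p of 0.114 in limma. The Fz4+/+ sample of litter 3 stood above the rest, and without it the difference was -0.21. Array weights gave -0.26, and the other samples left out in turn gave -0.75 to -0.46. Hoxb1, a gene of the early hindbrain, read 4.18, 4.20 and 3.21 in Fz4-/- against 3.73, 5.71 and 4.30 in Fz4+/+, a difference of -0.72 ± 0.55 (SE). Its Fz4+/+ sample of litter 2 was the highest, and without it the difference was -0.15. Leaving out litter 3's Fz4-/- sample gave -0.39 and litter 1's Fz4+/+ sample -1.14, and array weights turned the sign, at 0.03. Hoxc13, a gene of hair and nail, read 5.56, 4.43 and 4.01 in Fz4-/- against 5.69, 5.81 and 4.06 in Fz4+/+, a difference of -0.52 ± 0.60 (SE). Litter 2 alone gave -1.38, against -0.12 and -0.05 in litters 1 and 3. Leaving out 1 sample gave differences from -0.19 (litter 3 Fz4-/-), -0.21 (litter 2 Fz4+/+) and -0.27 (litter 1 Fz4+/+) to -0.96 (litter 1 Fz4-/-) and -1.08 (litter 3 Fz4+/+), and array weights gave -1.11.

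The 18 members not yet given sample by sample had genotype differences from -0.11 for Hoxc8 to 0.14 for Hoxc5, and none had an unadjusted p under 0.05. Hoxa2 differed by -0.0064, Hoxb3 by -0.06 and Hoxa3, which patterns the neck and its organs, by 0.02. Over the 6 samples Hoxa3 ran from 10.09 to 10.40 and Hoxb3 from 11.39 to 11.65, so both varied little on their brightest probe sets. Hoxa3 varied more on others, from 8.24 to 9.08 on the next brightest and from 6.99 to 7.80 on the one after it. Hoxd3 differed by 0.008 and Hoxd1 by 0.10. Among the genes of groups 4 and 5, which pattern the neck and upper trunk, Hoxb4 ran from 9.34 to 9.62 and differed by 0.07, and Hoxc4 ran from 11.03 to 11.37 and differed by -0.07. Hoxa5, needed for lung development, ran from 9.18 to 9.64 and differed by 0.06. Hoxb5 ran from 10.60 to 10.94 and differed by -0.06, and Hoxc5 differed by 0.14. In groups 6 to 8, the thoracic genes, Hoxb6 ran from 9.06 to 9.51 with a difference of 0.05, and Hoxc6 from 7.21 to 7.48 with -0.04. Hoxa7 ran from 6.85 to 7.08 with 0.06, and Hoxb7, active in the ureteric bud and its duct, from 4.37 to 4.73 with 0.0010. Hoxc8 ran from 10.28 to 10.71 with a difference of -0.11, and Hoxd8 from 11.21 to 11.46 with 0.08. The Hox13 genes Hoxa13 and Hoxb13, of the limb tips and the tail bud, ran from 3.94 to 4.18 and from 4.93 to 5.18, and both differed by -0.05. Against SEs of 0.11 to 0.48, each of these differences was smaller than its own SE.

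The 11 members with several probe sets gave the same sign of genotype difference on all of them in 6 cases (Hoxa4, Hoxb3, Hoxb4, Hoxc5, Hoxd8 and Hoxd13) and not in 5 (Hoxa3, Hoxa5, Hoxa9, Hoxa10 and Hoxc6). Hoxa3 had 4 probe sets with differences from -0.45 to 0.28. The lower bound came from a probe set with a mean of 4.79, on which the Fz4-/- samples read 4.70, 4.64 and 4.37 and the Fz4+/+ samples 4.96, 5.26 and 4.84. These groups did not overlap. Its unadjusted p in limma was 0.0308 and its adjusted p 0.999995. The second probe set of Hoxd13 also read lower in Fz4-/-, by -0.26, from 4.22, 4.09 and 4.32 against 4.64, 4.28 and 4.50, with overlapping groups. That of Hoxa9, with a mean of 8.51, differed by 0.25, and by 0.02, 0.35 and 0.38 within litters 1 to 3. Its sign was opposite to that of the brightest Hoxa9 probe set, and its unadjusted p in limma was 0.207.

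The range of the litter means exceeded the mean absolute genotype difference within litters for most Hox genes, as it did for most probe sets. The range of the 3 litter means had a median of 0.26 log2 over the members, against 0.33 over all probe sets, and the mean absolute difference between the genotypes within litters had a median of 0.13, against 0.21. The first was the larger in 27 of the 33 members and in 34190 of 45037 probe sets. The first is a range of means and the second a mean of differences. Both also hold the spread between single samples, so their order does not by itself set litter above genotype. limma's F test of litter, with genotype as a term, called 0 of 33 members and 0 of 45037 probe sets (0%) at an adjusted p under 0.05. At an unadjusted p under 0.05 there were 5 of 33 members, against 20.0% of all probe sets (9012) and 16.9% of those of all genes, so the members' count lay near the background. The 5 were Hoxd1, Hoxc5, Hoxa2, Hoxc13 and Hoxa4, and none belonged to the Hox9 to Hox11 groups. Leaving out the litter 3 Fz4+/+ sample gave 1 of 33 members and 3058 probe sets, and leaving out the litter 1 Fz4-/- sample gave 3 of 33 and 5439. A variance prior that follows the mean signal gave 11 of 33 and 11430. At an adjusted p under 0.05 that prior called 1412 probe sets, among them 1 member, Hoxa9, at an adjusted p of 0.0451.

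**Figure D3:**
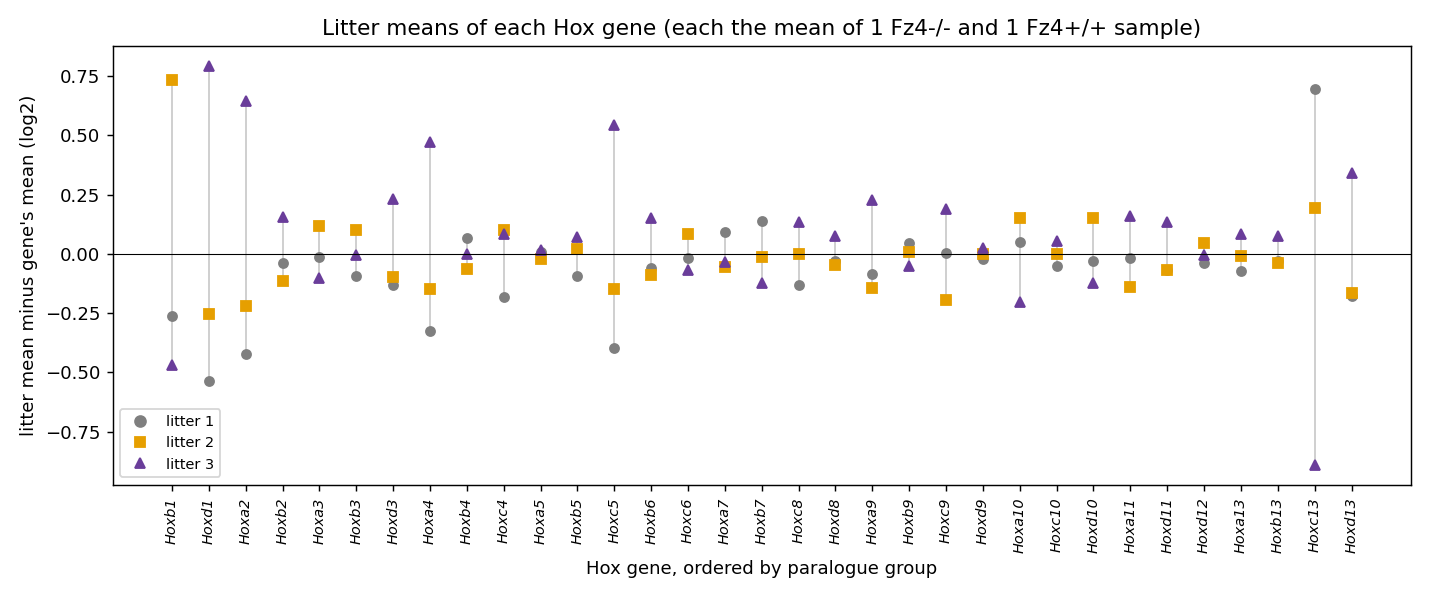
Litter means of the 33 Hox genes, ordered from group 1 to group 13. The vertical axis is each litter's mean of its Fz4-/- and Fz4+/+ sample minus the mean of the gene, in log2, circles, squares and triangles are litters 1, 2 and 3, and grey lines span the range. The widest ranges belong to Hoxc13, Hoxd1, Hoxb1, Hoxa2, Hoxc5 and Hoxa4, and those of the Hox9 to Hox11 genes run from 0.05 to 0.38.

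The 5 genes with the smallest litter p are given first. Hoxd1, a gene active in sensory neurons, read 5.80, 6.33 and 7.16 in Fz4-/- and 5.88, 5.92 and 7.18 in Fz4+/+ samples. Both samples of litter 3 were above the other 4, and litter 3 exceeded litter 1 by 1.33 ± 0.17 (SE), with an adjusted p of 0.0762 in limma for that contrast. The F test gave Hoxd1 the smallest unadjusted p of the members, 0.0021, and an adjusted p of 0.142. With the litter 2 Fz4-/- sample left out, the F test called Hoxd1 and Hoxc13, at adjusted p of 0.0413 and 0.0368, in a fit that called 1866 probe sets.

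Hoxa2, a gene of the hindbrain and branchial arches, read 6.58, 7.04 and 7.52 in Fz4-/- and 6.68, 6.62 and 7.86 in Fz4+/+ samples, and litter 3 exceeded litter 1 by 1.06 ± 0.22 (SE). Hoxc5 read 8.60, 8.86 and 9.30 in Fz4-/- against 8.31, 8.55 and 9.50 in Fz4+/+, and litter 3 exceeded litter 1 by 0.94 ± 0.18 (SE). For Hoxa4, given above, that contrast was 0.80 ± 0.20 (SE). In all 3 genes both samples of litter 3 were above the other 4, with the adjusted p of the F test at 0.174, 0.167 and 0.212. The second probe set of Hoxa4, which reads lower, gave litter 3 minus litter 1 as 0.33. The 2 other probe sets of Hoxc5 gave -0.02 and 0.12, so the size of the Hoxc5 difference rested on its brightest probe set. Hoxd3 read 10.44, 10.35 and 10.63 in Fz4-/- against 10.23, 10.39 and 10.78 in Fz4+/+, with litter 3 above litter 1 by 0.37 ± 0.15 (SE).

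Hoxc13 ran the other way, with both samples of litter 3, at 4.01 and 4.06, below the other 4. Litter 3 minus litter 1 was -1.59 ± 0.37 (SE), and the F test gave an adjusted p of 0.199. In the kidney groups, litter 3 minus litter 1 was 0.32 for Hoxa9, 0.19 for Hoxc9, 0.17 for Hoxa11 and 0.20 for Hoxd11, whereas it was -0.25 for Hoxa10 and -0.09 for Hoxd10. Hoxb9, Hoxc10 and Hoxd9 gave -0.10, 0.10 and 0.05. So genes next to each other in the Hoxa cluster, Hoxa9 and Hoxa10, lay on opposite sides of 0 in litter 3, a difference that was not tested as such. Both samples of litter 3 were above the other 4 for 8 of 33 members, against 27.5% of all probe sets and 32.5% of those of all genes. They were below the other 4 for 3 of 33, against 19.0% and 15.0%. The 8 were Hoxa2, Hoxa4, Hoxa9, Hoxb6, Hoxc5, Hoxc10, Hoxd1 and Hoxd3, and the 3 were Hoxa10, Hoxc13 and Hoxd10.

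**Figure D4:**
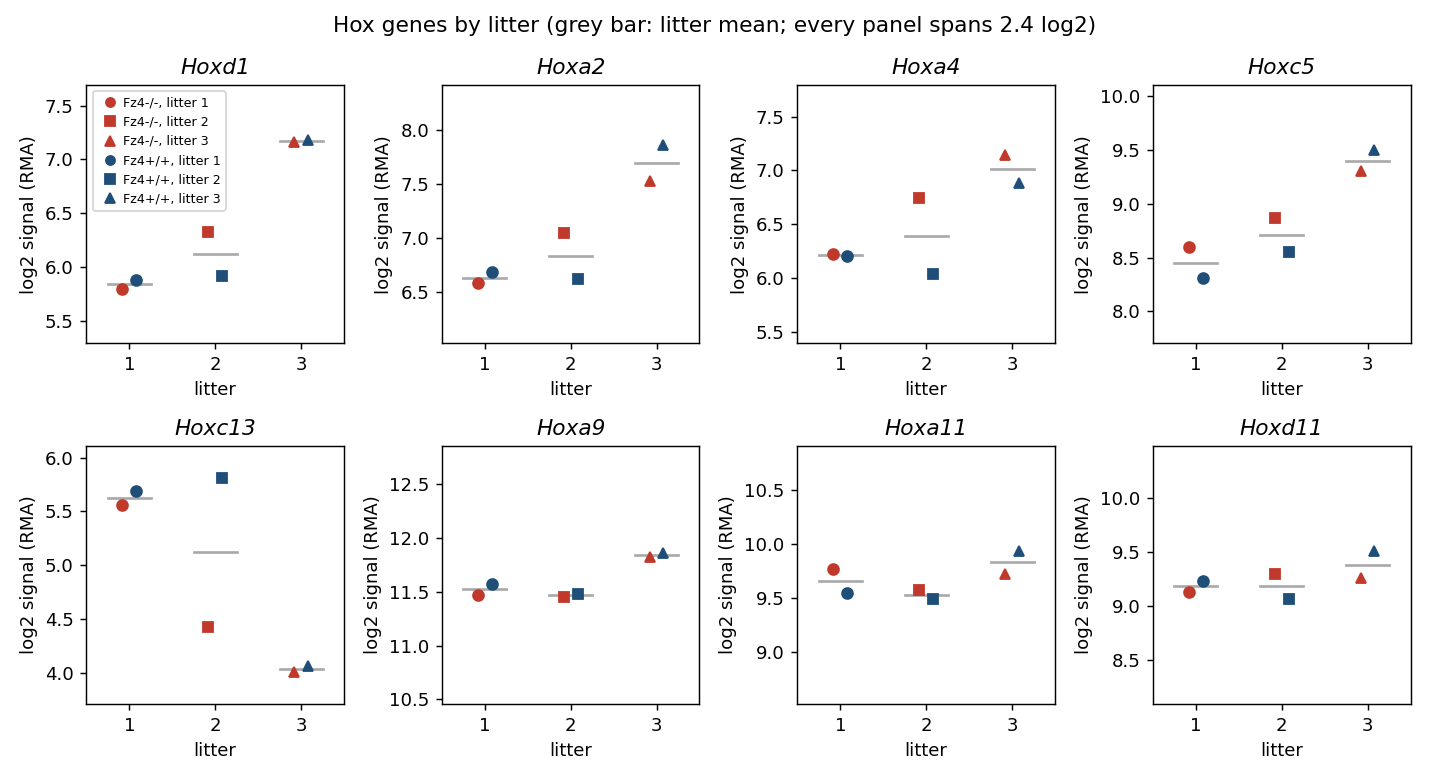
Signal by litter of the 5 genes with the smallest litter p (Hoxd1, Hoxa2, Hoxa4, Hoxc5 and Hoxc13) and of Hoxa9, Hoxa11 and Hoxd11. The vertical axis is log2 signal after RMA over the same span in every panel, points are samples (red Fz4-/-, blue Fz4+/+), and grey bars are litter means. In the first 4 panels and for Hoxa9 both litter 3 points lie above the other 4, and for Hoxc13 they lie below.

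By litter pair, litter 3 minus litter 1 had a median of 0.11 over the members, with 23 of 33 above 0, against medians of 0.05 over all probe sets and 0.09 over those of all genes. Above 0 were 55.3% of all probe sets and 61.6% of those of all genes. limma called 0 members and 0 probe sets (0%) in it. At an unadjusted p under 0.05 were 5 members, against 25.4% of all probe sets (11440) and 22.3% of those of all genes. Litter 3 minus litter 2 had a median of 0.07, against 0.06 over all probe sets and 0.10 over those of all genes. It gave 0 calls among members or all probe sets (0%), and an unadjusted p under 0.05 for 7 members, 21.6% of all probe sets (9740) and 18.8% of those of all genes. Litter 2 minus litter 1 had a median of 0.03, against -0.01 over all probe sets and -0.0041 over those of all genes, with 0 calls among both (0%). Its unadjusted p was under 0.05 for 0 members, 3.88% of all probe sets (1747) and 3.31% of those of all genes. Without either sample of litter 2, which are the same fit for the contrast of litters 3 and 1, limma called 3 of 33 members in it (Hoxa2, Hoxc13 and Hoxd1), at adjusted p from 0.0234 to 0.0352, and 8.45% of all probe sets (3807).

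Markers of other cell types also varied between litters and samples. The mean of the 7 measured neural and neural crest markers was 5.92, 5.87 and 6.43 in the Fz4-/- samples and 6.03, 6.86 and 7.25 in the Fz4+/+ samples of litters 1 to 3, and 5 of the 7 had a mean above 5.89 log2. Among them the neuronal gene Stmn2 read 6.84, 8.84 and 8.99 in Fz4-/- against 7.40, 8.91 and 8.94 in Fz4+/+, lowest in litter 1. Averaged within each sample, the 5 spinal cord markers gave 4.05 to 4.38 and the 4 limb mesenchyme markers 6.36 to 6.77. Single spinal cord markers had means from 3.01 for Mnx1 to 5.94 for Nkx6-1, with Olig2 and Mnx1 below 3.5 in every sample. Single limb mesenchyme markers had means from 4.26 for Tbx4 to 10.03 for Prrx1. The 7 striated muscle markers had means of 6.04 in the Fz4-/- and 8.55 in the Fz4+/+ sample of litter 2, and from 7.50 to 7.77 in the others. Their genotype difference was below 0 for all 7, with a median of -0.90, as it was for 6 of the 7 neural markers, with a median of -0.72. The 6 liver markers had means of 7.64, 6.29 and 6.44 in Fz4-/- and 7.57, 6.57 and 8.18 in Fz4+/+ samples, with all 6 genotype differences below 0 and a median of -0.49. Of the 8 nephron progenitor markers 7 were below 0, with a median of -0.16. Cited1, at -0.33, was the 1 of these 8 with an unadjusted p under 0.05 in limma (0.0186), against 1.09% of the brightest probe sets of all genes. Other marker lists also held such genes. In limma the unadjusted p was 0.027 for Th and 0.038 for Sox10 among the neural markers, and 0.0274 for the muscle marker Actn2. These 3 genes were lower in Fz4-/-. The spinal cord marker Sox1 was higher, with 0.0307. Th, Sox10 and Sox1 had means below 5.89 log2. In some lists most genotype differences were above 0, as were 54.1% of those of all genes. Above 0 were 7 of 8 early nephron epithelium markers, with a median of 0.11, and all 4 measured podocyte markers, with a median of 0.20. Within litters 1 to 3 the medians were 0.05, 0.38 and 0.18 for the first list and 0.17, 0.39 and -0.01 for the second. The podocyte marker Nphs1 differed by 0.03 at a mean of 4.21, below 5.89 log2. All 4 measured stroma markers (median 0.10) and 4 of 6 endothelial markers (median 0.15) were above 0 too. The 4 renal stroma markers had means of 10.97, 11.12 and 11.24 in Fz4-/- and 10.87, 10.99 and 11.19 in Fz4+/+ samples, highest in litter 3 within each genotype. The part of these cells in the Hox readings was not tested.

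Genes that work with Hox proteins or regulate them gave no call either. None of the genes in the 4 lists passed limma's test for genotype or for litter. Of 8 measured TALE cofactors, 6 were above 0 and 2 below, with a median of 0.01, and Pknox1, Meis3 and Pbx4 differed by 0.13, -0.07 and 0.04. Of 7 measured partners and downstream genes of Hox11, 3 were above 0 and 4 below, with a median of -0.10. Eya1, which binds Hox11 proteins, read 10.67, 10.66 and 10.61 in Fz4-/- and 10.64, 11.06 and 11.01 in Fz4+/+ samples, a difference of -0.26 ± 0.14 (SE). Gdnf, the growth factor that draws out the ureteric bud, read 9.67, 9.88 and 9.81 in Fz4-/- against 9.93, 9.88 and 10.31 in Fz4+/+, a difference of -0.25 ± 0.15 (SE). Six2, which keeps nephron progenitors undifferentiated, differed by -0.10 ± 0.12 (SE). Osr1, an early regulator of kidney mesenchyme, read 6.85, 7.13 and 7.10 in Fz4-/- against 6.94, 6.37 and 7.06 in Fz4+/+, a difference the other way of 0.24 ± 0.21 (SE). The unadjusted p of Eya1, Gdnf and Osr1 in limma was 0.125, 0.159 and 0.302, and for all 3 the groups overlapped.

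Of 11 measured upstream regulators of the clusters, 4 were above 0 and 7 below, with a median of -0.08, and 7 of the 11 had a mean at or above 5.89 log2. Egr2, a hindbrain regulator of anterior Hox genes, differed by -0.61 ± 0.38 (SE) between genotypes and by -0.998 between litters 3 and 1, with an unadjusted litter p of 0.0105. It was lower in Fz4-/- in each litter, and with litter as a block its genotype p in limma was 0.0147 unadjusted and 0.999986 adjusted. Of the 11 genes 5 had the same sign in all 3 litters, against 23.1% of the brightest probe sets of all genes. Egr2 was the 1 of 11 with an unadjusted p under 0.05 in the fit with litter as a block, against 2.74%. Gdf11, a signal that sets posterior Hox expression, differed by -0.22 at a mean of 4.80, below 5.89 log2. Cyp26b1, which breaks down retinoic acid, differed by 0.26, and the unadjusted genotype p of the 2 genes in limma was 0.158 and 0.167. Rarb, a retinoic acid receptor that is itself induced by retinoic acid, read 8.43, 8.71 and 8.93 in Fz4-/- and 8.29, 8.49 and 8.94 in Fz4+/+ samples, and litter 3 exceeded litter 1 by 0.57, with an unadjusted litter p of 0.024. Egr2 and Rarb were the ones of this list with an unadjusted litter p under 0.05, 2 of 11, against 16.9% of the brightest probe sets of all genes. Of 22 Polycomb and Trithorax genes, which keep Hox genes silent or active, 13 were above 0 and 9 below for genotype, with a median of 0.02. The smallest genotype p were those of Pcgf2, Men1 and Bmi1, which differed by 0.14, 0.20 and -0.13. Ezh1, a Polycomb methyltransferase, read 7.75, 7.86 and 8.60 in Fz4-/- against 7.72, 7.39 and 8.44 in Fz4+/+, and litter 3 exceeded litter 1 by 0.78. Kdm6a, a demethylase that removes the Polycomb mark, read 9.92, 9.65 and 9.36 in Fz4-/- against 10.12, 9.66 and 9.08 in Fz4+/+, with litter 3 minus litter 1 at -0.80. Their unadjusted litter p was 0.00718 and 0.0164, and 2 of the 22 genes were under 0.05, against 16.9% of the brightest probe sets of all genes.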

How the data were processed

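Whole kidneys of 6 samples were read on arrays, and the deposited values are log2 signals that the authors obtained with RMA, per the submitters' processing notes. RMA fits all arrays together, so values of 1 array depend on the others, and precision is limited by how few arrays there are. The values of 45037 probe sets were used, without 64 control probe sets, and 0 further sample columns were left out. The platform annotation gave 34958 probe sets 1 gene, 932 several and 9211 none, and only the first kind named a gene. The 33 members and the gene lists were chosen with earlier results of these data known. Differences were tested in R 4.3.3 with limma 3.58.1 over all 45037 probe sets: genotype alone for the genotype comparison, and litter plus genotype, by a moderated F test and 3 pairwise contrasts, for the litters. p-values were adjusted by Benjamini-Hochberg with a threshold of 0.05. Both fits were also run on simulated data. The genotype simulation held no spread between litters, unlike these data, so it does not show how that fit performs here. Exact permutation tests were two-sided, and 3 against 3 cannot go below 0.1. Per-sample values were given for all Hox9 to Hox11 genes and, among the other members, for the 3 higher and the 3 lower ones with the smallest genotype p and those with the smallest litter p. From each list the 3 genes with the smallest genotype p and those with a litter p under 0.05 were named, and further names were chosen after their values were seen. The labels give the litter of each sample, so that samples of a number pair. The deviations from the genotype means of the 2 samples of a litter correlated at 0.524, 0.12 and 0.77 in litters 1 to 3, across probe sets. The highest correlation of litter 1's Fz4-/- sample, 0.618, was with litter 2's Fz4+/+ sample. Alternatives were the litter as a block, array weights, a variance trend, quantile normalization, a filter on low signal, other rules for several probe sets, and leaving out each sample or litter 3. Promoters came from a RefSeq table of the build GRCm38.p6, and no build is named in the sources of the arrays used here.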

Additional observations from a re-analysis of the deposited data

How the results depend on the processing

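With 3 samples a group, no Hox gene and no probe set was called for genotype by limma under any alternative run, and the smallest adjusted p of a named gene was 0.171. Of 505 values of named genes under alternatives, 460 kept direction and side of the threshold, 42 reversed and 3 passed it (Hoxa9 with a variance trend, Hoxd1 and Hoxc13 without the Fz4-/- sample of litter 2). Here a litter value took its direction from litter 3 minus litter 1 but its adjusted p from the F test. The adjusted p of the contrast itself gave more calls, which are listed next and by litter pair above. For litter, the trend called 1412 probe sets and 1 member (Hoxa9) by the F test. In the contrast of litters 3 and 1 it called 4 members (Hoxa9, Hoxc5, Hoxc13 and Hoxd1) and 7.82% of all probe sets, and in that of litters 3 and 2 it called 1 (Hoxa9) and 2.59%. Array weights called 1 member, Hoxd1, and 4.07% between litters 3 and 1. Litter without genotype in the fit called 91 probe sets and 0 members by the F test, and 1 member, Hoxd1, and 4.14% between litters 3 and 1. The cause was not tested.

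With the replicate block, that is litter, 0 probe sets were called for genotype, 1442 had an unadjusted p under 0.05 in place of 531, and the pairing changed no other call. That count was 239 after the filter on low signal, where fewer probe sets were tested, 9510 with array weights, 1837 without litter 3, and 287 to 2709 when 1 sample was left out, the ends coming without litter 2's Fz4-/- and without litter 3's Fz4+/+ sample.

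Some genotype differences changed sign. Of those named in this paragraph, all but that of Hoxb1 (-0.72) were reported within 0.1 log2 of 0. Quantile normalization gave Hoxa11 -0.0008, Hoxc10 -0.0061 and Hoxd3 -0.0168. Array weights gave Hoxd10 0.0504, Hoxd11 0.0589, Hoxb1 0.0256 and Hoxa2 0.2851. Averaging the probe sets of each gene gave Hoxa9 0.0988 and Hoxa10 0.0024, and probe sets specific by their name gave Hoxa10 0.0440. Without litter 3, Hoxd11 was 0.0636 and Hoxa2 0.1580. Other values moved without a change of sign. Averaging the probe sets moved the members' median between litters 3 and 2 from 0.0653 to 0.1339. Leaving out litter 3 moved the Hox9 to Hox11 median of the genotype difference from 0.0115 to 0.0531.

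Leaving out 1 sample at a time gave genotype differences from -0.1729 to 0.0559 for Hoxa9, -0.1615 to 0.0724 for Hoxa10, -0.0511 to 0.1692 for Hoxa11, -0.0466 to 0.0467 for Hoxc10, -0.1042 to 0.1087 for Hoxd10 and -0.1403 to 0.0792 for Hoxd11. It gave -0.2657 to 0.5271 for Hoxd1, -0.1022 to 0.4914 for Hoxc5, -0.2455 to 0.3971 for Hoxa2 and -0.1111 to 0.1631 for Hoxd3. The medians ran from -0.0284 to 0.0559 for Hox9 to Hox11 and from -0.0958 to 0.0369 for the others. Litter 3 minus litter 1 ran from -0.0045 to 0.3524 for Hoxa11, -0.1952 to 0.0041 for Hoxb9, -0.0093 to 0.0743 for Hoxd12 and -1.0840 to 0.6717 for Hoxb1. The members' medians ran from -0.0162 to 0.0696 for litter 2 minus litter 1 and from 0.0272 to 0.1293 for litter 3 minus litter 2. Calls by litter ran from 0 to 1866 probe sets and 0 to 2 members by the F test, 0 to 3 members between litters 3 and 1 (0 to 3807 probe sets), and 0 to 2 between litters 3 and 2.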

Other observations

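Some probe sets of the Hox clusters belonged to no member, because the annotation gave them to several genes or to an antisense transcript. A probe set shared by Hoxb8 and Hoxb7 read 8.76, 9.10 and 9.24 in the Fz4-/- samples of litters 1 to 3 and 8.59, 8.95 and 9.65 in the Fz4+/+ samples, highest in litter 3 in both genotypes. The brighter of the probe sets shared by Hoxd4 and Hoxd3 read 7.80, 8.01 and 7.89 against 7.59, 7.47 and 8.19.

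Antisense transcripts of the clusters also gave signal. The brighter probe set of Hoxa11os, the antisense partner of Hoxa11, read 10.25, 10.29 and 10.31 in Fz4-/- and 10.21, 10.02 and 10.42 in Fz4+/+ samples. Hoxb5os read 10.14, 10.26 and 10.02 against 10.08, 9.66 and 10.02. The brighter probe set of Hoxd3os1 read 10.19, 10.24 and 10.43 against 10.12, 10.04 and 10.48, and both samples of litter 3 were above the other 4, as they were for Hoxd3.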
